A study of Homo sapiens with 12 samples.

Results

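The arms of the miR-192, miR-194 and miR-215 hairpins were followed in small RNA libraries of AsPC-1 and PANC-1, which are established lines of pancreatic ductal adenocarcinoma (PDAC). The 5 members were hsa-mir-192-5p, hsa-mir-192-3p, hsa-mir-194-5p, hsa-mir-194-3p and hsa-mir-215-5p, of 1733 miRNAs listed in any of the 12 libraries. They were chosen by name, as arms of the miR-192/miR-194-2 and miR-215/miR-194-1 clusters, with their levels in these libraries and earlier results known, so their levels are given as a description with no test. All 5 were read in AsPC-1, and 4 of 5 in PANC-1. Each line was represented by 3 control libraries and 3 libraries of cells in which MYEOV, a gene overexpressed in several cancers, was knocked down with siRNA delivered by lipofection. The study asked how miRNA expression changes when MYEOV is reduced.

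The series text calls the treatment a knockout, whereas the protocol describes siRNA. The labels give harvest at 48 h after transfection and describe the controls as untreated, whereas the methods of the study describe a negative control siRNA and an earlier harvest. If the controls were untreated, effects of the transfection and of the loss of MYEOV cannot be told apart in any comparison here. A pair of MYEOV siRNAs is named, but the knockdown libraries carry only a number, which was taken as the replicate. The methods say in general that experiments were repeated independently, but neither they nor the labels say it of these libraries, so the p-values measure the spread between these libraries, which may be technical. MYEOV itself was not measured in these libraries, so the knockdown could not be checked here. These are bulk cultures, in which fewer cells expressing a miRNA and fewer copies per cell cannot be told apart.

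A miRNA hairpin is cut into a 5p and a 3p arm, of which one usually accumulates while the other is largely degraded. The accumulated arm pairs with target mRNAs through its seed, so miRNAs with the same seed share many targets. MiR-192, miR-194 and miR-215 are known as miRNAs of intestine, liver and kidney epithelium, where HNF1 factors drive their transcription, and all 3 have been described as p53-responsive. Their hairpins lie in 2 clusters, each with a copy of miR-194.

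Because the reading of the counts depends on which hairpin can give which sequence, the mature sequences are shown here as listed by RefSeq (build GRCh38.p14), 5′ to 3′, with the seed (bases 2 to 8) in capitals. All 5 members matched an entry, as did miR-215-3p, the arm of these hairpins that is not a member.
miR-192-5p: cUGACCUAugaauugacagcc
miR-215-5p: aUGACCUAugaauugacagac
miR-194-5p: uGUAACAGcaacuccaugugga
miR-192-3p: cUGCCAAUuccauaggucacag
miR-194-3p: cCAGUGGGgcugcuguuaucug
miR-215-3p: uCUGUCAUuucuuuaggccaaua
MiR-192-5p and miR-215-5p share the seed UGACCUA and differ at 2 of 21 positions, C1A and C20A, counted from 1 at the 5′ end with the base of miR-192-5p first. The first of these lies at the 5′ end by which reads were assigned to a miRNA, so reads of these miRNAs that kept their first base can be told apart. No other pair of the 6 arms shared a seed.

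The pair of miR-194 hairpins is shown next with the annotated mature arms in capitals, since it determines what miR-194-5p and miR-194-3p report.
MIR194-2: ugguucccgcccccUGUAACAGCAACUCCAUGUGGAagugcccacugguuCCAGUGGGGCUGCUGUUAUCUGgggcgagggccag
MIR194-1: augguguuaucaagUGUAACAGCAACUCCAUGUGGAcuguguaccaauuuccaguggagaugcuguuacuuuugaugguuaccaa
MiR-194-5p is identical in both hairpins, so its count cannot be divided between the loci. MiR-194-3p occurs in MIR194-2 only. The closest stretch of MIR194-1 differs from it at 5 of 22 positions (G8A, C10A, U19C, C20U and G22U, with the base of miR-194-3p first), and reads had to match the genome perfectly.

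By exact match on GRCh37, the build the authors mapped to, MIR192 lies on the minus strand at chr11:64658609-64658718 and MIR194-2 at chr11:64658827-64658911, 108 bases apart. Both lie in the lncRNA gene MIR194-2HG, MIR192 in exon 2 of 1 of the 3 transcripts that span it and MIR194-2 in exon 2 of 2 of 4. MIR215 lies at chr1:220291195-220291304 and MIR194-1 at chr1:220291499-220291583, 194 bases apart on the minus strand. Both are antisense to an intron of IARS2, which encodes a mitochondrial isoleucyl-tRNA synthetase and is transcribed from the plus strand. MYEOV is on chromosome 11 as well, 4.40 Mb from MIR194-2.

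The libraries held 6463528 to 7311783 counted reads in AsPC-1 controls, 5587106 to 5934261 in AsPC-1 knockdown, 3805084 to 5049361 in PANC-1 controls and 3928990 to 4931799 in PANC-1 knockdown. Levels are given as CPM, reads of a miRNA scaled to a common library size, normalized with TMM factors within a line, and are means ± SD (n = 3). No libraries were identical. AsPC-1 control replicate 1 stood apart from its group, with a chi-square per degree of freedom of 224 and 183 against replicates 2 and 3, which differed from each other by 22.1. The members' changes in AsPC-1 are given with and without it.

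In AsPC-1 controls, miR-192-5p and miR-194-5p were among the most abundant miRNAs. MiR-192-5p was read at 52665, 53227 and 59148 CPM in control replicates 1 to 3, which made it the 4th, 4th and 3rd most abundant miRNA. MiR-194-5p was read at 55700, 42551 and 43152 CPM and ranked 3rd, 6th and 6th. Replicate 1, the library that stood apart, was the only control in which miR-194-5p exceeded miR-192-5p, and the ranges of these miRNAs overlapped. MiR-215-5p followed at 3128 ± 261 CPM, then miR-194-3p at 278 ± 21.7 CPM and miR-192-3p at 12.4 ± 3.47 CPM. These 3 levels did not overlap with each other or with the abundant arms. The 5 members together took 9.80 to 11.7% of the counted reads in AsPC-1 controls and 9.83 to 10.2% in knockdown libraries.

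In PANC-1 controls the members kept the same order of means at far lower levels. MiR-192-5p was read at 239, 216 and 241 CPM and miR-194-5p at 206, 165 and 166 CPM, with no overlap between them. MiR-215-5p was read at 10.8, 7.51 and 12.4 CPM. MiR-194-3p gave only 4, 4 and 9 reads (1.32 ± 0.876 CPM), and miR-192-3p gave 0 reads in all 6 libraries of the line. Together the members took 0.0410 to 0.0495% of the reads in PANC-1 controls and 0.0384 to 0.0389% in knockdown libraries.

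The control level in AsPC-1 was 237-fold that in PANC-1 for miR-192-5p, 264-fold for miR-194-5p, 211-fold for miR-194-3p and 306-fold for miR-215-5p. Over the pairs of control libraries these ratios ranged from 218 to 274, 207 to 338, 109 to 396 and 235 to 455, so the ranges of the 4 members overlapped. The ratio of miR-194-3p rested on 17 PANC-1 reads in all, and without PANC-1 control replicate 3 it moved from 7.72 to 8.41 on the log2 scale, by over 1.5 times. Arms of both clusters were thus lower in PANC-1, by factors that were not separated by the spread between libraries. MiR-192-3p was at least 53.7-fold higher in AsPC-1, against a floor of 3 counts over the PANC-1 controls. At the 3p share of AsPC-1 controls (0.0223% of miR-192 reads), the 6143 reads of miR-192-5p in the PANC-1 libraries would be joined by 1.37 reads of miR-192-3p, so an equal 3p share in PANC-1 would not have been detectable at this depth.

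**Figure D1:**
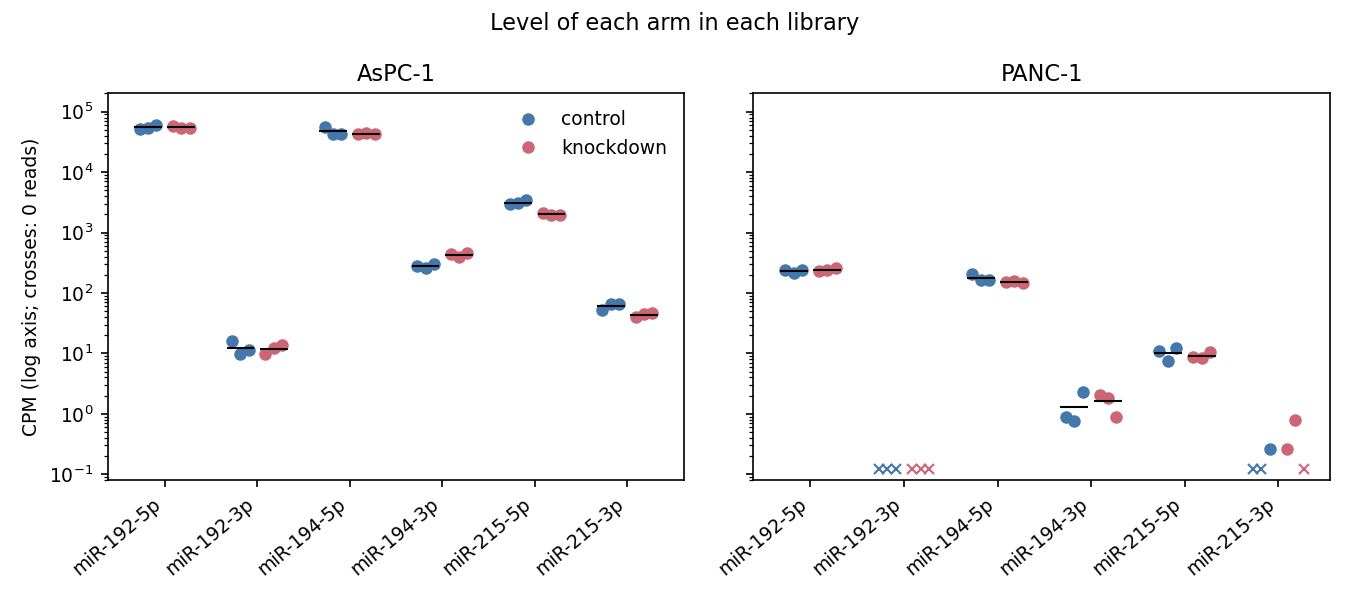
CPM (log axis) of the 5 members and of miR-215-3p in each library of AsPC-1 (left) and PANC-1 (right); points are libraries in replicate order, bars are group means and crosses mark 0 reads. In AsPC-1, miR-194-3p was higher and miR-215-5p and miR-215-3p were lower in all 3 knockdown libraries than in any control, and miR-192-3p had 0 reads in all 6 PANC-1 libraries.

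The PANC-1 levels of the 4 members with reads were 0.327 to 0.475% of the AsPC-1 levels. Few other miRNAs abundant in AsPC-1 were so low in PANC-1. Of 162 miRNAs with at least 100 CPM in AsPC-1 controls, 15 were below 1% of that level in PANC-1. Both counts include these 4 members. Of the 15, 4 were below all 4 members with reads and 2 were below 0.1%. The last 2, named after their values were seen, were miR-452-5p (1698 CPM in AsPC-1 and 0.0174% of it in PANC-1) and miR-224-5p (7800 CPM and 0.0350%). Such gaps were more frequent in the other direction. Of 219 miRNAs with at least 100 CPM in PANC-1 controls, 56 were below 1% of that level in AsPC-1 and 44 below 0.1%. Whether any of the members' PANC-1 reads came from other libraries was not tested beyond these values.

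MiR-200 family members, which maintain epithelial identity by repressing ZEB factors, differed between the lines in the same direction. Over miR-200a-3p, miR-200b-3p, miR-200c-3p, miR-141-3p and miR-429 the control level was 153-fold to 727-fold higher in AsPC-1. The profiles nearest to miR-192-5p over the 12 libraries, by the root-mean-square (RMS) difference of centred log2(CPM + 1) values among 402 miRNAs and with the members themselves left out of the ranking, were those of miR-200a-3p (0.15), miR-141-3p (0.22), miR-429 (0.23), miR-200b-3p (0.30) and miR-582-5p (0.38). The same 5 non-members were nearest to miR-194-5p, led by miR-141-3p (0.18) and miR-200a-3p (0.25). Among the members, miR-192-5p and miR-194-5p were 0.22 apart, and miR-215-5p was 0.26 from miR-192-5p and 0.30 from miR-194-5p. Each of these distances was smaller than that of some of the 5 non-members named, whereas miR-194-3p was farther than all of them (0.48 from miR-192-5p and 0.62 from miR-194-5p). The difference between the lines dominates this measure. The pseudocount compresses the PANC-1 level of miR-141-3p (0.369 CPM), miR-582-5p (1.06 CPM) and miR-194-3p (1.32 CPM). The likeness of miR-141-3p and miR-582-5p, and the distance of miR-194-3p, therefore rest partly on it.

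**Figure D2:**
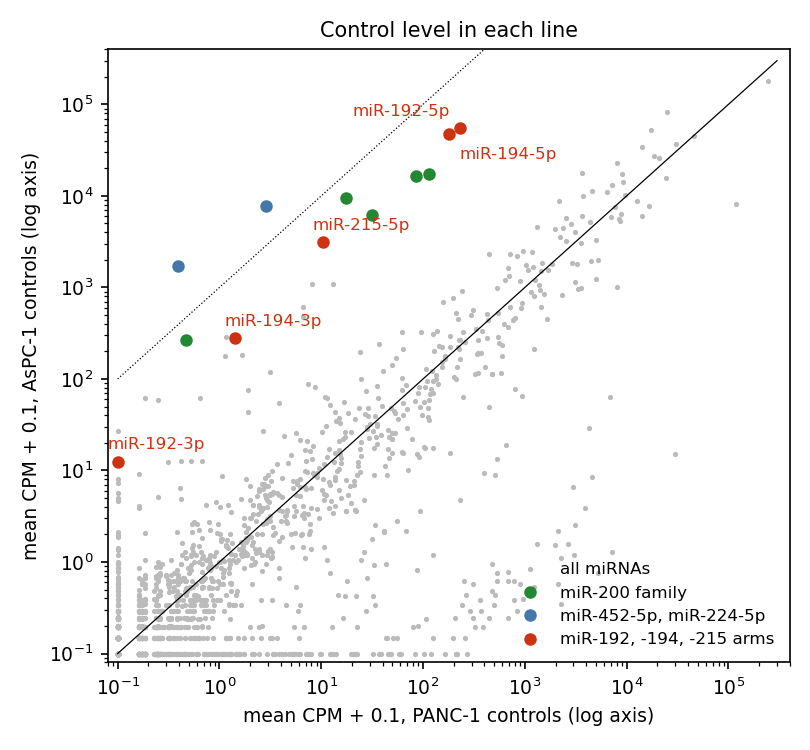
Mean control CPM of each miRNA in AsPC-1 (vertical) and PANC-1 (horizontal), both plus 0.1 on log axes, with equality as a solid line and a 1000-fold difference as a dotted line. The members (red) lie between these lines beside the miR-200 family (green), with 211-fold to 306-fold higher levels in AsPC-1 where both lines had reads, and miR-452-5p and miR-224-5p (blue) lie beyond the dotted line.

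On MYEOV knockdown in AsPC-1, miR-215-5p fell and miR-194-3p rose, whereas the abundant arms miR-192-5p and miR-194-5p did not pass the test. Of the 5 members, all of which were tested, 2 passed an adjusted p of 0.05 in edgeR's quasi-likelihood test, 1 in each direction. Over all 498 miRNAs tested in AsPC-1, 11.4% passed, 7.03% as higher and 4.42% as lower. The control and knockdown libraries did not overlap for 2 of 5 members and for 30.5% of all tested. The median log2 fold change (LFC, knockdown over control) was -0.0047 over all tested, and the members' LFC lay between -0.65 and 0.64.

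MiR-215-5p, which shares its seed with miR-192-5p, was read at 2916, 3049 and 3419 CPM in control and at 2084, 1932 and 1951 CPM in knockdown replicates 1 to 3. Every knockdown library lay below every control, and the groups were further apart than their spread. It fell by 36.4% (LFC -0.65 ± 0.082 SE, adjusted p = 0.000141 by edgeR) and ranked 3rd of the 498 by p. Among the 78 miRNAs of at least 1000 CPM, a level limit set after the values were seen, none had a lower LFC. The other arm of the same hairpin, miR-215-3p, was read at 52.2, 66.7 and 65.6 CPM in control and at 39.6, 44.2 and 45.9 CPM in knockdown. It fell as well, without overlap (LFC -0.51 ± 0.12 SE, adjusted p = 0.0138), so both arms of MIR215 were lower. This call was less stable. The adjusted p was 0.0511 without control replicate 2, 0.0728 without control replicate 3 and 0.102 without knockdown replicate 1, whereas without control replicate 1 it was 8.82e-05 (LFC -0.61).

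MiR-194-3p, the arm that only MIR194-2 can give, was read at 282, 255 and 298 CPM in control and at 448, 397 and 451 CPM in knockdown replicates 1 to 3. All knockdown libraries lay above all controls. It rose by 55.6% (LFC 0.64 ± 0.091 SE, adjusted p = 0.000288 by edgeR), in the direction opposite to the MIR215 arms. Such a rise was not particular to this hairpin. The less abundant arms miR-200b-5p and miR-141-5p of other hairpins passed as higher too, whereas miR-200c-5p did not pass (values below). Without AsPC-1 control replicate 1, the LFC was 0.65 for miR-194-3p and -0.69 for miR-215-5p, and both passed.

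MiR-192-5p was read at 57403, 53308 and 54156 CPM in knockdown replicates 1 to 3, within the range of the controls given above. Its LFC was -0.0015 ± 0.079 SE (95% confidence interval -0.17 to 0.17, adjusted p = 0.991 by edgeR), and -0.025 without control replicate 1 (adjusted p = 0.749). MiR-194-5p was read at 42048, 44512 and 42702 CPM in knockdown, overlapping controls 2 and 3 but below the 55700 CPM of control replicate 1. Its LFC was -0.13 ± 0.099 SE (interval -0.34 to 0.081, adjusted p = 0.439), and without that replicate it was 0.016 (adjusted p = 0.839). MiR-192-3p, the degraded arm of MIR192, was read at 16.3, 9.62 and 11.2 CPM in control and at 9.82, 12.2 and 13.6 CPM in knockdown, with overlap (LFC -0.057 ± 0.21 SE, adjusted p = 0.899). Without control replicate 1 its LFC was 0.19 (adjusted p = 0.532).

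**Figure D3:**
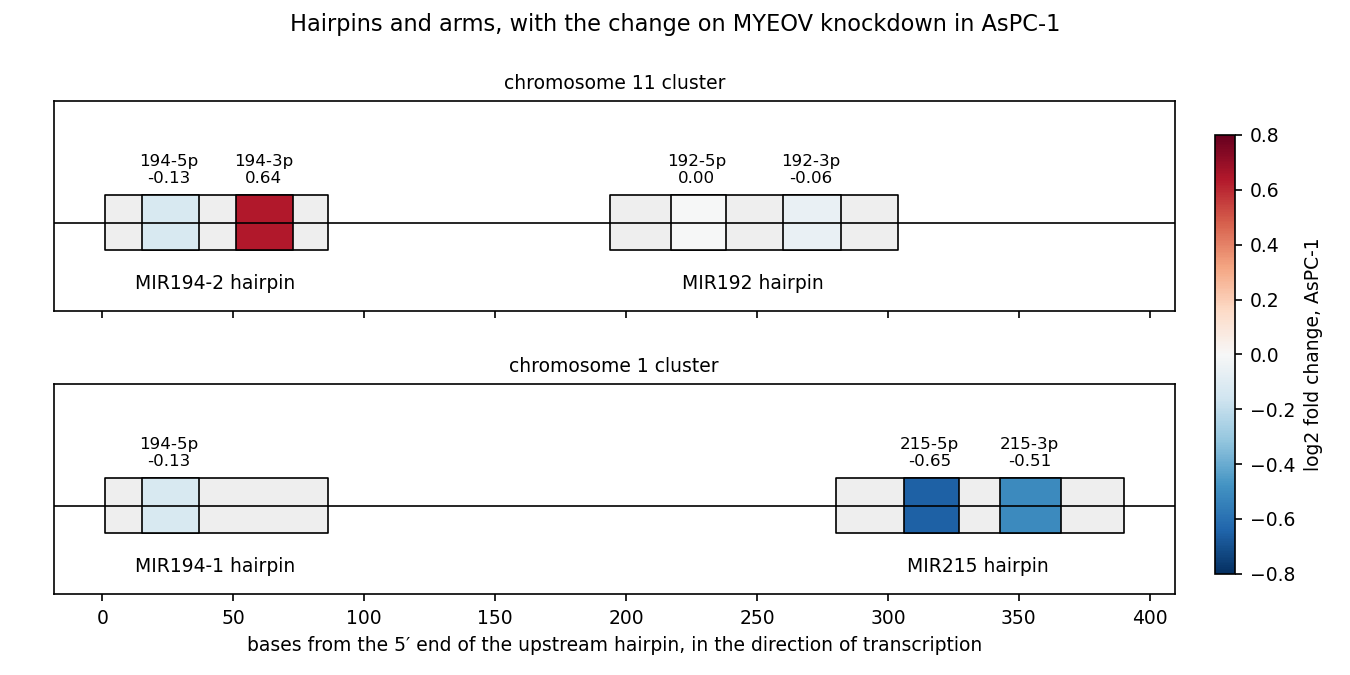
Hairpins (grey) and annotated mature arms of the chromosome 11 and chromosome 1 clusters, drawn to scale in bases along the direction of transcription, with arms coloured by their LFC in AsPC-1. Both arms of MIR215 are blue (-0.65 and -0.51), miR-194-3p is red (0.64) and the other arms lie between -0.13 and -0.0015, and miR-194-5p carries the same value in both clusters because its reads cannot be divided.

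**Figure D4:**
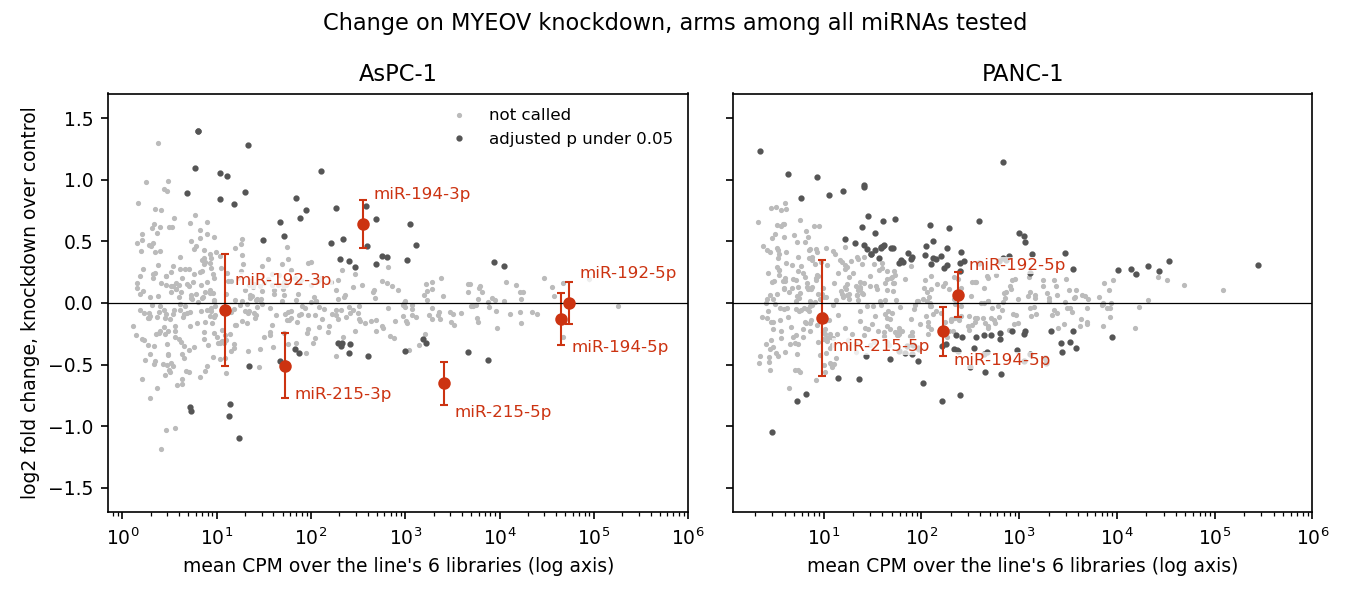
LFC on knockdown against mean CPM (log axis) for all miRNAs tested in AsPC-1 (left) and PANC-1 (right), with dark points passing an adjusted p of 0.05 and the arms of these clusters in red with 95% confidence intervals. In AsPC-1 miR-215-5p lies below every other miRNA of at least 1000 CPM, and in PANC-1 the 3 members tested lie between -0.23 and 0.068, none of them passing.

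In PANC-1, none of the 3 members tested passed the threshold, where 22% of the 551 miRNAs tested did (median LFC 0.028). MiR-192-3p and miR-194-3p had too few reads to be tested. The libraries did not overlap for 1 of 3 members and for 36.7% of all tested. At an unadjusted p under 0.05, 1 of the 3 was below it, miR-194-5p, as were 35.8% of all tested. DESeq2's Wald test also called none of the 3.

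MiR-194-5p was read at 206, 165 and 166 CPM in PANC-1 control and at 154, 155 and 148 CPM in knockdown replicates 1 to 3. All knockdown libraries lay below all controls, but the difference did not pass (LFC -0.23 ± 0.098 SE, interval -0.43 to -0.032, unadjusted p = 0.0245, adjusted p = 0.0887 by edgeR). The call depended on the processing. Without PANC-1 control replicate 3 the adjusted p was 0.0356 (LFC -0.30), and with total count scaling it was 0.0188 (LFC -0.38). Without PANC-1 control replicate 1, the highest library, it was 0.351 (LFC -0.13), and over all 14 alternatives it ranged from 0.0188 to 0.351. Total count scaling moved the median LFC of all miRNAs in PANC-1 by -0.15, and relative to that median the LFC was -0.26. It also moved the share of calls that were higher from 57.9 to 18.2%.

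MiR-192-5p was read at 233, 238 and 258 CPM in PANC-1 knockdown libraries, overlapping the controls (LFC 0.068 ± 0.089 SE, interval -0.11 to 0.25, adjusted p = 0.618 by edgeR). MiR-215-5p was read at 8.59, 8.42 and 10.6 CPM, also overlapping, from 32 to 48 reads per library (LFC -0.12 ± 0.23 SE, interval -0.59 to 0.35, adjusted p = 0.753). With 1 library left out its LFC ranged from -0.32 (without PANC-1 control replicate 2) to 0.013 (without PANC-1 control replicate 3). MiR-194-3p gave 8, 7 and 4 reads and was not tested.

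The difference of the LFC between the lines was tested in one edgeR fit over the 12 libraries. For miR-215-5p the LFC in AsPC-1 minus that in PANC-1 was -0.63 ± 0.22 SE (interval -1.08 to -0.19), with an unadjusted p of 0.00676 and an adjusted p of 0.183. The median over all miRNAs tested was -0.12, and relative to it the difference was -0.51. No member passed, and over all 650 miRNAs tested 0.308% did. The adjusted p was 0.655 for miR-192-5p and 1.00 for miR-194-5p. MiR-194-3p entered this fit only through its AsPC-1 reads (adjusted p = 0.942), and with 4 to 9 reads in a PANC-1 library its change there could not be compared with that in AsPC-1. For miR-215-5p, a change particular to AsPC-1 was not shown.

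Ratios of reads within a library do not depend on the scaling. Comparisons of 7 ratios were tested with two-sided exact permutation tests, which cannot give a p below 0.1 with 3 libraries against 3, so none could pass, and the smallest adjusted p was 0.233. In AsPC-1, miR-215-5p made up 5.38 ± 0.115% of the reads of the seed pair miR-192-5p plus miR-215-5p in controls and 3.49 ± 0.0133% in knockdown, without overlap (exact p = 0.1, n = 3 against 3). In PANC-1 it made up 4.19 ± 0.777% and 3.63 ± 0.277%, with overlap (exact p = 0.4). Without control replicate 1 the difference in AsPC-1 was -1.95 percentage points, against -1.88 with it. The seed pair together took 5.57 to 6.12% of AsPC-1 control reads and 5.56 to 5.82% of knockdown reads, and these ranges overlapped because miR-192-5p supplied most of both.

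MiR-194-3p made up 0.503 to 0.685% of miR-194 reads in AsPC-1 controls and 0.885 to 1.06% in knockdown, without overlap (means 0.594 ± 0.0909% and 0.995 ± 0.0959%, exact p = 0.1). The difference was 0.401 percentage points with control replicate 1 and 0.356 without it. In PANC-1 its share was 0.754 ± 0.544% and 1.03 ± 0.391%, with overlap (exact p = 0.6) and from 4 to 9 reads. That difference was 0.279 percentage points, and 0.114 to 0.593 with 1 library left out. The ratio of miR-194-5p to miR-192-5p was 0.862 ± 0.173 in AsPC-1 controls and 0.785 ± 0.0513 in knockdown (exact p = 0.7), and without control replicate 1 the difference turned from -0.077 to 0.021. In PANC-1 it was 0.770 ± 0.0861 and 0.629 ± 0.0461, without overlap (exact p = 0.1). MiR-192-3p made up 0.0226 ± 0.00716% of miR-192 reads in AsPC-1 controls and 0.0217 ± 0.00409% in knockdown (exact p = 0.8), and without control replicate 1 the difference turned from -0.00094 to 0.0032 percentage points.

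**Figure D5:**
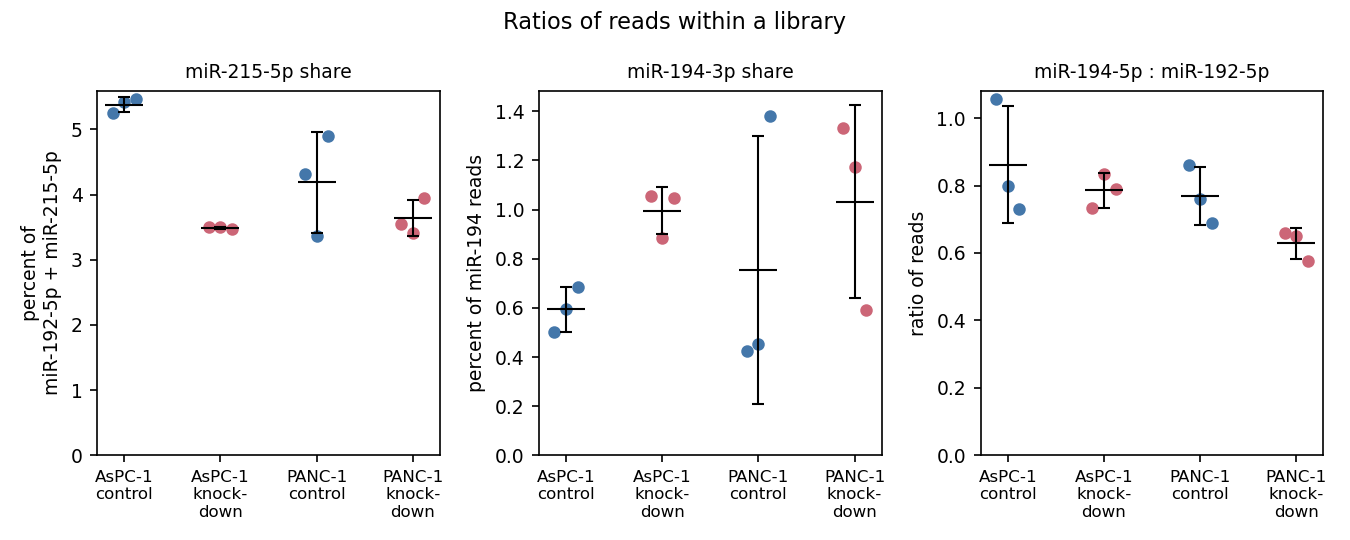
Ratios of reads within each library by line and group, with points for libraries and bars for the mean ± SD (n = 3), all axes from 0. In AsPC-1 the share of miR-215-5p was lower in each knockdown library (3.48 to 3.50%) than in any control (5.25 to 5.46%), and the share of miR-194-3p was higher.

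Other miRNAs with known links to these loci were counted from lists, against the 11.4% of all miRNAs tested that were called in AsPC-1 and 22% in PANC-1. Of 9 p53-linked miRNAs, 2 were tested in AsPC-1 and none passed. Their LFCs were 0.99 (at 2.06 CPM in controls) and -0.12 (at 1339 CPM), so the median of 0.44 describes neither. In PANC-1 4 were tested, with a median LFC of 0.069, and 1 fell, miR-107 (701 ± 63.3 to 572 ± 15.4 CPM, LFC -0.30, adjusted p = 0.0137 by edgeR). Of 8 epithelial miRNAs, 7 were tested in AsPC-1 and none passed (median LFC 0.033). The list holds the major arms only. The minor arms of the same hairpins, named after their values were seen, were higher for miR-200a-5p (LFC 0.47, adjusted p = 0.0138), miR-200b-5p (0.52, adjusted p = 0.000897) and miR-141-5p (0.69, adjusted p = 0.00327) in AsPC-1, while miR-200c-5p did not pass (0.28, adjusted p = 0.497). The call of miR-200a-5p was lost without AsPC-1 knockdown replicate 1 (adjusted p = 0.0877). In PANC-1 miR-200a-5p was higher as well (LFC 0.87, adjusted p = 0.00363 by edgeR) and passed under all 14 alternatives. Of the 8 listed epithelial miRNAs, 6 were tested in PANC-1 (median -0.10) and 1 fell, miR-429 of the miR-200 family (31.3 ± 1.81 to 23.2 ± 4.20 CPM, LFC -0.43, adjusted p = 0.0403). Of 6 other liver and gut miRNAs, 3 were tested in AsPC-1, at 5.08 to 8.50 CPM in controls, and none passed (median 0.42). In PANC-1 2 were tested (median 0.64). The LFC was 0.62 for 1 of them, at 2.92 CPM in controls, and 1 rose, miR-147b (31.2 ± 10.5 to 49.5 ± 4.59 CPM, LFC 0.67, adjusted p = 0.00365). Under the alternatives the adjusted p reached 0.0816 for miR-107, 0.226 for miR-429 (without knockdown replicate 2) and 0.0992 for miR-147b (without knockdown replicate 3). Without PANC-1 control replicate 1 the LFC of miR-147b was 0.40 (adjusted p = 0.0219).

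The labelled lines were checked against miRNAs of other cell types. The 8 epithelial miRNAs accounted for 4.87 to 5.27% of AsPC-1 reads but only 0.0225 to 0.0296% of PANC-1 reads, a difference carried by the miR-200 family. Of the others, miR-203a-3p was read at 6.44 ± 0.398 and 6.81 ± 1.83 CPM in AsPC-1 and PANC-1 controls, miR-375 was 7.74-fold higher in PANC-1 (10.6 ± 1.14 against 1.37 ± 0.679 CPM), and miR-205-5p was listed in neither line. The 4 acinar miRNAs reached at most 4.64e-05% (AsPC-1) and 5.09e-05% (PANC-1), and miR-216a-5p had 0 control reads in both lines. The blood list took 0.0397 to 0.0563% over both lines, nearly all of it miR-486-5p, while miR-223-3p had 0 control reads. The fibroblast and smooth muscle list reached at most 0.000784% (AsPC-1) and 0.00824% (PANC-1), and the muscle list at most 0.000154% and 0.0177%. Of the acinar, blood, fibroblast and smooth muscle, and muscle lists, 0, 3, 2 and 0 miRNAs were tested in AsPC-1 with none called, and 0, 1, 3 and 2 in PANC-1 with 1 called, against 22% of all tested. This was miR-1-3p of the muscle list, which rose from 124 ± 10.7 to 159 ± 26.3 CPM (LFC 0.36, adjusted p = 0.0174, and 0.203 without knockdown replicate 3). The neural list took 0.422 to 0.608% and 1.12 to 1.42%, with none of the 2 tested in each line called. Within it, miR-9-5p was 542-fold higher in PANC-1 controls (4530 ± 288 against 8.36 ± 1.39 CPM). MiR-128-3p was read at 5338 ± 1146 CPM in AsPC-1 controls and 8515 ± 888 CPM in PANC-1 controls.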

How the data were processed

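Small RNA of AsPC-1 and PANC-1 cells was sequenced in 12 libraries, 3 per group. Per the labels and the methods, the authors trimmed adapters, mapped reads of miRNA length to hg19 with Bowtie (version not given in the sources used here), kept perfect matches and deposited raw counts per mature miRNA. The labels and the methods name different HiSeq instruments. Each count sums the most abundant sequence of an arm and the sequences that start at its first base. Isoforms starting elsewhere are left out, and an arm whose main 5′ end differs between groups would be misread. Unlisted miRNAs were set to 0. Ligation favours some sequences, so levels of different arms are compared as reads only.

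The 12 files were joined, and each line was fitted separately with edgeR 4.0.16 in R 4.3.3 (filterByExpr with a minimum count of 10, TMM, quasi-likelihood F test, Benjamini-Hochberg adjustment over all miRNAs tested, threshold 0.05). The difference between lines was the interaction in a fit of all 12 libraries. The SE of an LFC was its size divided by the square root of F. Ratios were tested with scipy 1.17.1. The fits were tested on simulated data. A floor of 3 counts equals 0.410 to 0.788 CPM and, like all counting limits here, covers counting error only.

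The members and lists were chosen with earlier results of these data known. All members are named, as are miR-215-3p, called miRNAs of the p53-linked, epithelial, and liver and gut lists, and the 5 profiles nearest to miR-192-5p and to miR-194-5p (mean of at least 10 CPM, pseudocount 1). Marker lists of other cell types served as a check of the lines. Names outside this rule are marked. LFCs within a line were recomputed with upper-quartile, total count and DESeq2 1.42.0 size factors, other filters, DESeq2's Wald test, 12 libraries in one fit, a replicate block and leaving out each library, and the interaction with most of these. Control levels were recomputed with other scalings and leaving out libraries, and ratios leaving out libraries. The alternatives for miRNAs that are not members were added after seeing the data.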

Additional observations from a re-analysis of the deposited data

How the results depend on the processing

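Over 34 results and 415 alternative values, 360 kept their direction and their side of the threshold or moved by less than the replicate spread. MiR-215-5p (LFC -0.75 to -0.58) and miR-194-3p (0.53 to 0.70) passed in AsPC-1 under all 14 alternatives. Of the 55 values that changed, those that turned their sign were mostly LFCs near 0. The others were calls lost or gained, or control levels and member counts that moved. All lost calls were of miRNAs that are not members. The cause of these changes was not tested. MiR-192-5p in AsPC-1 was 0.016 with upper-quartile factors, 0.011 with at least 10 counts in every library, and -0.038 to 0.061 with 1 library left out. Leaving out 1 library gave -0.21 to 0.19 for miR-192-3p and -0.20 to 0.016 for miR-194-5p in AsPC-1, and -0.30 to -0.13 for miR-194-5p and -0.32 to 0.013 for miR-215-5p in PANC-1, with 0 to 1 member called. With total count scaling miR-192-5p was -0.077 and miR-194-5p -0.38 in PANC-1, with 1 member called. AsPC-1 minus PANC-1, miR-192-5p was 0.064 with total count scaling. MiR-194-5p was 0.23 with it, 0.17 with DESeq2 size factors and with DESeq2's Wald test, 0.10 with TMM within each line, and -0.12 to 0.15 with 1 library left out. MiR-194-3p was then -0.36 to 0.57, below 0 without PANC-1 control or knockdown replicate 3. The difference of miR-215-5p between the lines ranged from -0.76 to -0.39, and its adjusted p from 0.0552 to 0.722. TMM over 12 libraries gave a log2 ratio of the control levels of 8.31 for miR-192-5p, 8.47 for miR-194-5p and 8.67 for miR-215-5p. In AsPC-1, leaving out 1 library gave differences of -0.0032 to 0.0032 percentage points for the miR-192-3p share and -0.14 to 0.021 for the miR-194-5p to miR-192-5p ratio.

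With the replicate block, the between-line difference of miR-194-5p was 0.0065 and no member's call changed, while miR-200a-5p lost its call in AsPC-1 (LFC 0.49). The block called 29 miRNAs in AsPC-1 where 57 were called without it, and 153 against 121 in PANC-1. Deviations of same-numbered libraries correlated at -0.17, -0.14 and 0.11 in AsPC-1 and at 0.068, 0.032 and 0.15 in PANC-1, so the numbers were not taken to pair the libraries. In AsPC-1, 102 were called without control replicate 1, 24 without knockdown replicate 1 and 31 without knockdown replicate 3, and in PANC-1 68 and 55 without knockdown replicates 2 and 3. The interaction called 2, but 25 and 20 without AsPC-1 control replicates 1 and 2, 1 without AsPC-1 knockdown replicate 1, and 5 and 13 without PANC-1 control replicates 1 and 3. Without a filter, 75 were called in AsPC-1, 90 in PANC-1 and 10 by the interaction. The 12 libraries in one fit called 67 in PANC-1, and TMM within each line gave 5 calls in the interaction. Depth limits miR-194-3p and miR-192-3p in PANC-1, where libraries held at most 9 and 0 reads of them.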
